A study of Drosophila melanogaster with 2 samples.

Results

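The homeobox developmental regulators examined here are 54 genes that encode homeodomain transcription factors, chosen by name from the Hox, TALE, segmentation, appendage, POU, zinc-finger homeodomain, eye, NK and neural classes. All 54 were found among the 13945 protein-coding genes annotated on 2L, 2R, 3L, 3R, 4 and X. Chromatin of whole pupae aged 2 days was precipitated with an antibody against GFP, and the flies carried an insertion that joins eGFP to CG10348. CG10348 is a predicted C2H2 zinc-finger protein. The single group held 2 biological replicates, which the labels give as separate biosamples of the same fly strain, and no second genotype, stage or treatment was compared. The promoter of the fusion is not given in the sources used here, and the sex of the animals was not collected.

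Homeodomain proteins bind short AT-rich DNA and set the identity of segments, appendages and cell types along the body. Hox genes lie in clusters whose large regulatory regions are classical targets of Polycomb repression in flies. In pupae many of these genes act again in the imaginal tissues that build the adult. Whole pupae mix these tissues, so weak binding in many cells and strong binding in few cells cannot be told apart here.

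Only 6 of the 54 homeobox genes were bound: hth, inv, C15, vvl, zfh1 and tin. A gene counted as bound when the summit of a peak in the conservative pooled list lay inside it, or had its nearest protein-coding transcription start site (TSS) in that gene within 10 kb. That is 11.1% of the homeobox genes (exact Clopper-Pearson 95% interval 4.19 to 22.6), against 10.2% of all protein-coding genes. The interval covers counting error of genes only. The homeobox genes are large, however: the domain in which a summit would be assigned to the gene had a median length of 21.1 kb, against 5.25 kb over all genes. Genes were therefore also split by domain length into 10 size classes of near-equal number. If each homeobox gene had been bound as often as all genes of its size class, 13.6 would have been bound, so the count stood at 0.44 times the number for genes of similar size (0.166 to 0.896 from the same interval). That range takes the 13.6 as fixed and the genes as independent, though several lie together in clusters. It is therefore not a test. No test was made of the difference from genes of similar size, since the genes were proposed with earlier results of these data known.

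In the largest size class, which began at 20 kb, 4 of 32 homeobox genes were bound (12.5%), against 438 of 1287 genes (34%). In size class 9, 1 of 10 homeobox genes was bound, against 17.1% of genes of that size. The remaining bound gene, tin, had a domain of only 5.74 kb, in a class where 6.89% of genes were bound. With the 200 genes nearest in domain length to each homeobox gene in place of size classes, an alternative added after seeing the data, the expected number was 12.5.

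**Figure D1:**
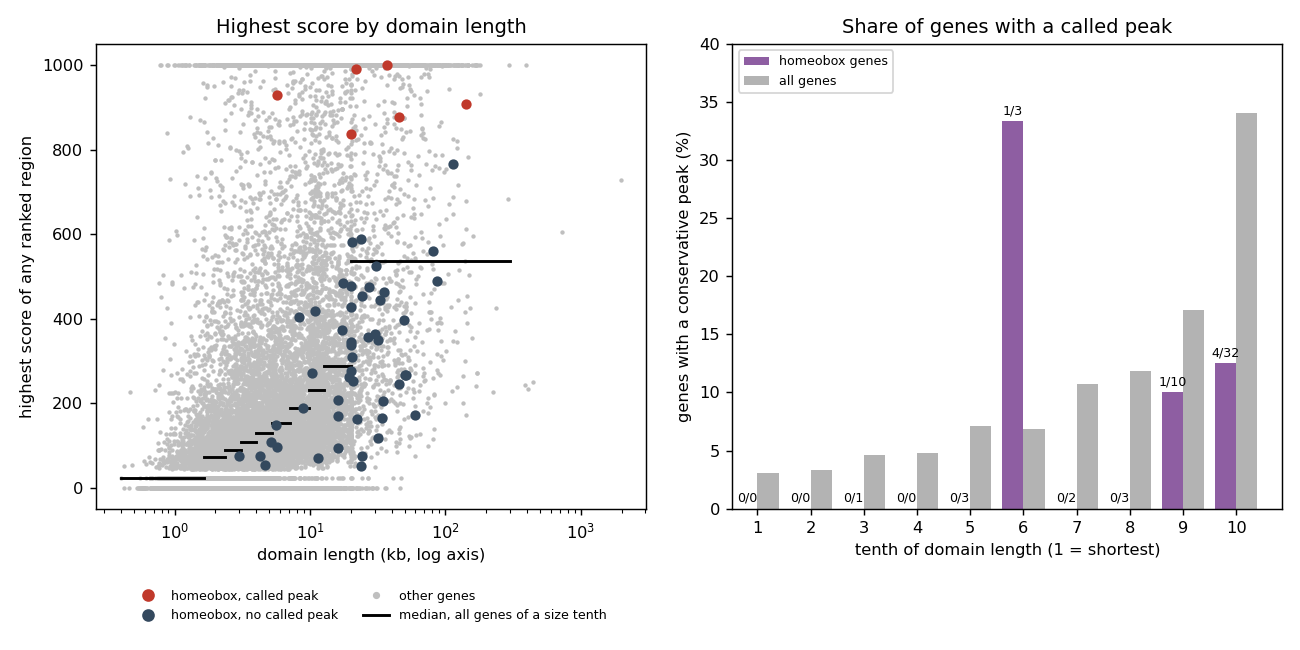
Left, the highest deposited score of any ranked region (0 where the list held none) against domain length in kb on a log axis, for the 54 homeobox genes (coloured) and all other genes (grey), with the median of each size class over all genes as a black bar. Right, the percent of genes with a conservative peak by size class, with counts printed for the homeobox genes: 4 of 32 in the largest class, where 34% of all genes were bound, 1 of 10 in class 9 and 1 of 3 in class 6.

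None of the 54 genes lacked a ranked region. Together they held 1669 ranked regions, or 1.055 per kb of domain, against 1.053 per kb over all genes. Over all genes 8.12% had no region at all, a share not matched for domain length. Each region carries a deposited score, the authors' scaled irreproducible discovery rate (IDR), which grows with the reproducibility of a region's rank and is capped at 1000. A list made from a single replicate cannot compare the 2 replicates, so its scores and the pooled scores are not the same measure. The thresholded list begins at a score of 830, an IDR of 0.01. The ranked list on the arms has 1860 regions at or above 830, more than the 1799 conservative peaks, so shares that reach 830 include some regions the conservative list lacks. In homeobox domains the 8 such regions are the 8 conservative peaks. Of the regions in homeobox domains 8 reached 830 (0.479%, exact interval 0.207 to 0.942), against 1.48% of 119731 regions assigned to other genes. Regions are not independent, since neighbours can rest on the same reads.

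Regions in homeobox domains had the same typical strength as those of other genes but few of the strongest. The deposited signal is the authors' peak strength, whose scaling is not stated. Its median was 16.7 in homeobox domains and 16.4 elsewhere, and the 90th percentile was 31.7 against 32. The 99th percentile was 46.3 against 72.5. A signal of at least 50 was reached by 11 homeobox regions (0.659%), against 1.96% of the others. Of those 11, 7 passed the threshold (63.6%), against 70.9% of the others with such a signal. A signal of at least 80 was reached by 1 homeobox region among 1669 (0.0599%), at zfh1, against 1025 among the 119731 regions of other genes (0.856%).

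**Figure D2:**
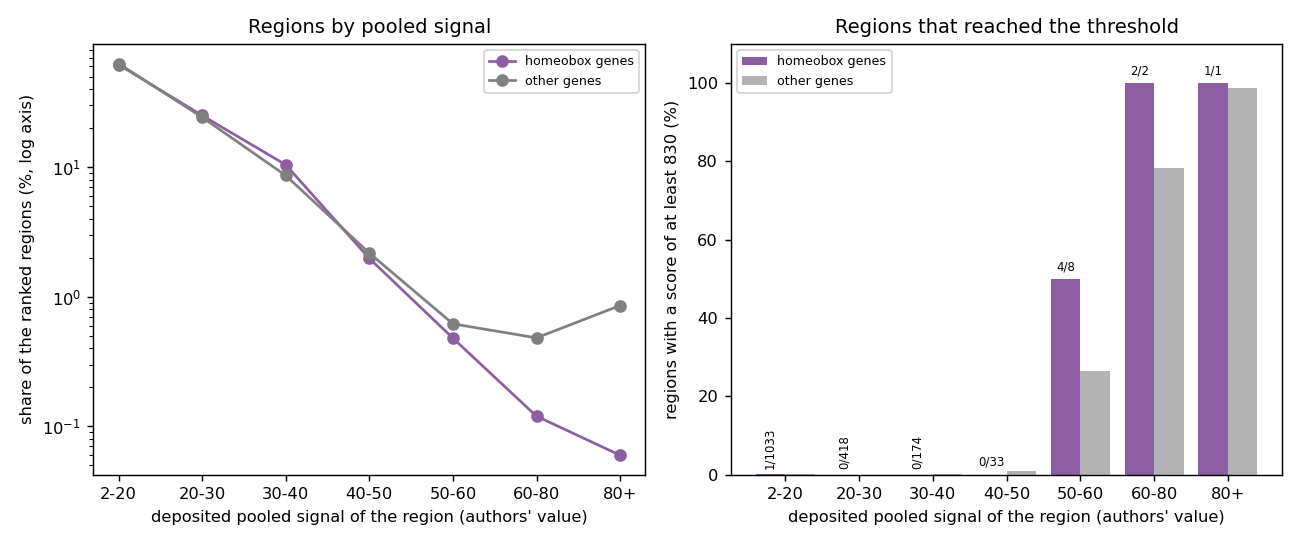
Left, the share of ranked regions in each class of pooled signal, on a log axis, for homeobox genes and other genes. Right, the percent of regions in each class with a score of at least 830, with counts for the homeobox genes. The 2 curves lie close up to a signal of 60 and part above it; 4 of 8 homeobox regions between 50 and 60 and all 3 above 60 passed.

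The sequences at the summits show where CG10348-eGFP signal was called and what the highest-scoring uncalled region looks like. Each line gives the 100 bases centred on a summit, read 5′ to 3′ on the plus strand of the RefSeq genome of the dm6 assembly, with the gene and the position. Capitals mark every AAATAT or its reverse complement ATATTT, an AT-rich word, and every TAATTA, the homeodomain core, which reads the same on both strands. The last line is the highest-scoring region among the homeobox genes that were not bound.
zfh1 (3R:30781786-30781885): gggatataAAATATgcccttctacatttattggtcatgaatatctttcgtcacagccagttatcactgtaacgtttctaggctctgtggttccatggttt
tin (3R:21378706-21378805): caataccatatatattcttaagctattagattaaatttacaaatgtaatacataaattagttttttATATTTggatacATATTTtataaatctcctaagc
C15 intron (3R:21511205-21511304): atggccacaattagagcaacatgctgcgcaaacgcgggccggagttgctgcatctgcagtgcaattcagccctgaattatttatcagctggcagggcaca
C15 upstream (3R:21493794-21493893): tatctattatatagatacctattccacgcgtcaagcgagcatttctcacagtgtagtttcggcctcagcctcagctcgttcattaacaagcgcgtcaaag
vvl (3L:6799629-6799728): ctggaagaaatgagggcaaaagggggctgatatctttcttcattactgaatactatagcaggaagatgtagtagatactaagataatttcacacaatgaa
hth (3R:10560689-10560788): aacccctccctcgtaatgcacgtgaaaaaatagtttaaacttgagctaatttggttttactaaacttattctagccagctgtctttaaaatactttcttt
Antp (3R:6920192-6920291): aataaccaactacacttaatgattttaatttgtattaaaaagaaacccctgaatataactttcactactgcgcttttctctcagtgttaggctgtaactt

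AAATAT was present in the windows of zfh1 and tin alone among those printed, and TAATTA in none. The windows of the inv peak and of the second zfh1 peak are not shown, and neither word occurs in them. Over all 1799 conservative peaks on the arms, 30.1% of summit windows held AAATAT and 8.95% held TAATTA, against 11.7% and 4.73% of windows at ranked regions that did not pass. G and C made up 38.3% ± 10.4 (SD) of the bases in the 8 called windows of homeobox genes and 35.1% ± 10.6 over all conservative peaks. Windows at ranked regions that did not pass held 46.7% ± 9.48. Both words consist of A and T alone, and the part of base composition in their shares was not tested. The 48 highest-scoring regions of the unbound homeobox genes, of all sizes, held 51.8% ± 10.1 G and C. The 10322 such regions of other unbound genes held 49.5% ± 9.89, and the 774 of these in the largest size class held 48.1% ± 10.2. The Antp window, with 31% G and C, lay below each of these means.

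The strongest peak among the 54 homeobox genes was in zfh1, which encodes a zinc-finger homeodomain protein of mesoderm and motor neurons. It lay in an intron at 3R:30781668-30782003, 1422 bp from a TSS of the gene. Its pooled signal was 112, rank 580 in the conservative list, with 63.9 in the list of replicate 1 and 47.6 in that of replicate 2, and the score was 1000 in all 3 lists. A second conservative peak of zfh1, at 3R:30781868-30782203, overlapped the first, had a signal of only 2.8 and met the same region of each replicate. Both replicates thus supply 1 site at zfh1. Of the 54 genes it was the only one called in each replicate's own thresholded list and in both pooled lists.

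At tin only the ranked list of replicate 1 held a region that overlapped the peak. Reads were not examined, so what replicate 2 gave to the pooled score was not tested. The gene encodes the NK-type factor needed for the heart, and its summit lay 221 bp from the TSS in intergenic sequence at 3R:21378588-21378923. Of the 54 genes it was the only one bound within 1 kb of a TSS, where 7.7% of all genes were. The pooled signal was 74.5 and the score 930. Replicate 1 had a signal of 54.3 with a score of 1000, and the ranked list of replicate 2 held no region that overlapped the peak. Elsewhere in the tin domain that list reached a signal of 13.5 and a score of 29.

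The other 5 peaks had pooled signals between 53.1 and 63. The class from 50 to 60 holds 4 of them, and 26.6% of other genes' regions in it passed, while 78.3% passed in the class from 60 to 80, which holds the stronger C15 peak. C15, which acts in the distal leg, had a peak in an intron at 3R:21511087-21511422 with a pooled signal of 63 and a score of 990. Replicate 1 gave 30.2 there (score 253) and replicate 2 gave 33.4 (score 709). The nearest TSS, 9673 bp away, belongs to sp3, so this peak was assigned to both genes. The second C15 peak lay upstream at 3R:21493676-21494011, 6142 bp from the TSS. Its signal was 53.5 in the pooled list, 27.6 in replicate 1 and 28 in replicate 2. Its score was 886 in the pooled list, and the replicates' own lists gave 144 and 24.

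At vvl, a POU-domain gene of wing veins and trachea, the summit was intergenic and 9521 bp from the TSS, close to the 10 kb limit, at 3L:6799511-6799846. The pooled signal was 57.1 and the score 836, the lowest of any bound homeobox gene. Replicate 1 gave 36 (score 259) and replicate 2 gave 22.5 (score 123). At hth, whose product brings the Hox cofactor Exd into the nucleus, the summit was deep in an intron, 53.5 kb from the nearest TSS, at 3R:10560571-10560906. The pooled signal was 53.1 and the score 909, with 33.8 (score 607) in replicate 1 and 24.6 (score 29) in replicate 2. The domain of hth, 142 kb, was the largest among the 54 genes and held 169 ranked regions.

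At inv, the paralogue of engrailed in posterior compartments, the summit lay in an intron at 2R:11500019-11500354, 24.5 kb from the TSS. The pooled signal was 57.4 and the score 878. Replicate 1 gave 37.7 and passed on its own with a score of 894, while replicate 2 gave 23.2 with a score of 54. Among the 6 bound genes, zfh1 alone had a score above 540 in both replicates at its strongest peak.

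The calls changed with the list used. In the optimal pooled list 4 homeobox genes were bound (10.6% of all genes): zfh1, tin, inv and ct. The lists shared 3 genes, 3 of the 6 in the conservative list and 3 of the 4 in the optimal list. The ct peak, in an intron of this regulator of external sensory organs at X:7637176-7637511, had a pooled signal of 61.7 and an optimal-list score of 844. It overlapped a region of replicate 1 with a signal of 30.7 and no region of replicate 2. In the thresholded list of replicate 1, 3 homeobox genes were bound (inv, zfh1 and tin; 7.72% of all genes), and in that of replicate 2 only zfh1 (6.45% of all genes). At a looser limit, a score of 540 or an IDR of 0.05, the pooled ranked list named 10 homeobox genes (15.9% of all genes), adding Antp, Dll, so and ct.

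Over the 54 genes the highest score of any region had a median of 341, against 147 over all genes. Large genes hold more regions, and against genes of the same size class the order turned: 35 of 54 homeobox genes had a highest score below the median of their class. The median homeobox gene stood above 42.3% of the genes in its class. Outside chromosome 4, 31 of 50 were below the median of their class, and the median gene stood above 44.2%. The largest class, with 32 of the homeobox genes, runs from 20 to 1976 kb, so size is matched only loosely there. Against the 200 genes nearest in domain length, places in that class moved both ways, with lab from 41.3% to 72% and Ubx from 46.5% to 31%. Scores between 250 and 540 were held by 25 homeobox genes (46.3%), against 27.5% of genes of the same size. Scores from 540 to 830 were held by 4 (7.41%, against 11.9%), and scores of at least 830 by 6 (11.1%, against 25.5%). Just inside the threshold lay vvl at 836, and just outside it Antp at 765, followed by Dll at 589.

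**Figure D3:**
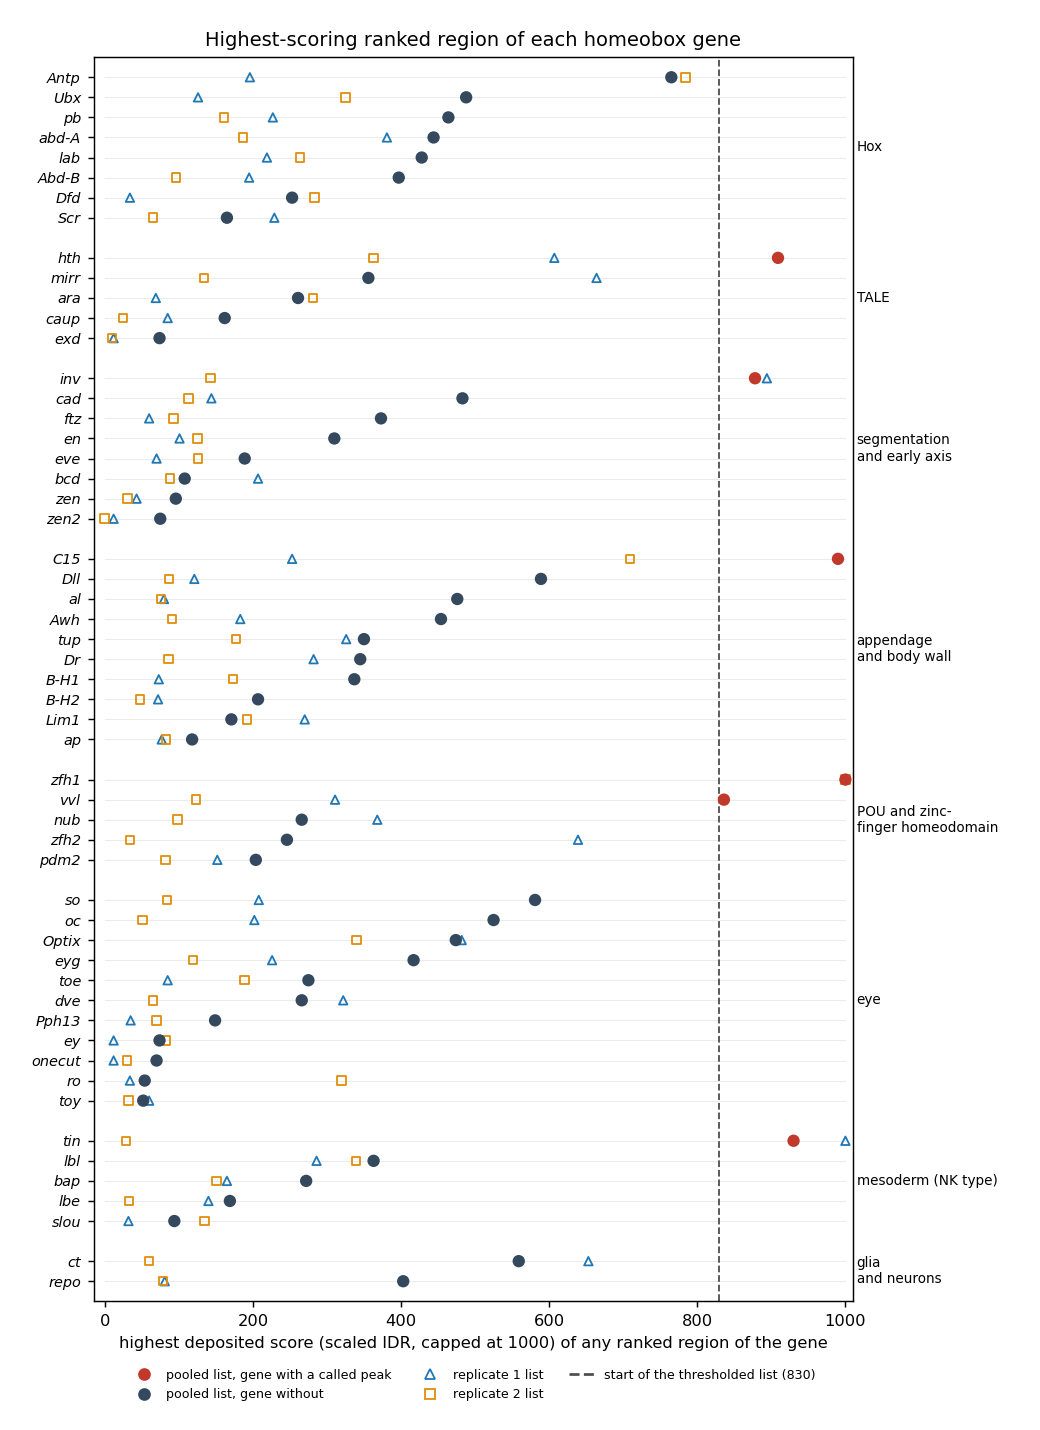
The highest deposited score of any ranked region assigned to each of the 54 homeobox genes, by role, in the pooled list (circles, red for genes with a conservative peak), the list of replicate 1 (triangles) and the list of replicate 2 (squares, 0 where the list held no region). The dashed line marks 830; the red circles run from vvl at 836 to zfh1 at 1000, where all 3 symbols coincide.

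In each replicate's own list, where the score is not the same measure as in the pooled list, the highest scores were lower at the median. They exceeded the pooled score for 12 genes in replicate 1 and 7 in replicate 2. The median over the 54 genes was 174 in replicate 1 and 97 in replicate 2, against 53 and 50 over all genes. The highest score was higher in replicate 1 for 35 genes and higher in replicate 2 for 18. A score of at least 540 was reached by 7 genes in replicate 1 and 3 in replicate 2, with zfh1 the only gene in both.

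None of the 8 Hox genes was bound (exact upper limit 36.9%), where genes of their size gave 2.72, or 34%, a share below that limit. The highest scores were 765 at Antp, 488 at Ubx, 464 at pb, 444 at abd-A, 428 at lab, 397 at Abd-B, 253 at Dfd and 165 at Scr. These genes give head, thoracic and abdominal segments their identities. Every Hox gene but Antp scored below 537, the median of the largest size class, to which all 8 belong. That class has no upper limit, and the order differed against the 200 genes nearest in domain length. There lab stood above 72% and pb above 52%. Antp stood above 49.5%, abd-A 47.5%, Dfd 39%, Abd-B 33%, Ubx 31% and Scr 8.5%. At Antp, the thoracic gene with a domain of 113 kb, the best region lay in an intron and had a pooled signal of only 26.9, with 26.2 in replicate 1 and 24.1 in replicate 2. Its strongest region by signal, 52.7, was in another intronic stretch and scored 645, with 21.5 in replicate 1 and 28.1 in replicate 2. The highest score of any Antp region was 196 in replicate 1, at the first of these regions, and 784 in replicate 2, at the second.

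The 2 Hox clusters held many ranked regions but 1 conservative peak between them. The span of the Antennapedia complex from lab to Antp, 338 kb, contained 337 ranked regions, none of which was a conservative peak, where an even spread of the 1799 peaks over the arms would place 4.54. The nearest conservative summits lay 112 kb beyond lab and 68.1 kb beyond Antp. The optimal list and both replicates' thresholded lists were also without a summit in this span. The bithorax complex from Ubx to Abd-B, 316 kb, contained 345 ranked regions and 1 conservative peak, where an even spread would place 4.24. An even spread takes no account of the concentration of peaks near TSSs.

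That peak lay between Ubx and abd-A and was assigned to no gene, since its nearest TSS, 10.6 kb away, belongs to the sugar transporter gene Glut3. It spanned 3R:16798697-16799032, with a pooled signal of 54.6 and a score of 961, and was also in the optimal list. Replicate 1 gave 29 (score 196) and replicate 2 gave 32.2 (score 22), and neither replicate's thresholded list held it. The summit window is shown because it is the only called sequence in a Hox cluster, with 55% G and C and no AAATAT or TAATTA.
between Ubx and abd-A (3R:16798815-16798914): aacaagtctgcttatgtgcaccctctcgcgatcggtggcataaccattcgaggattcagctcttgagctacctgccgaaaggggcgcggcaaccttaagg

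**Figure D4:**
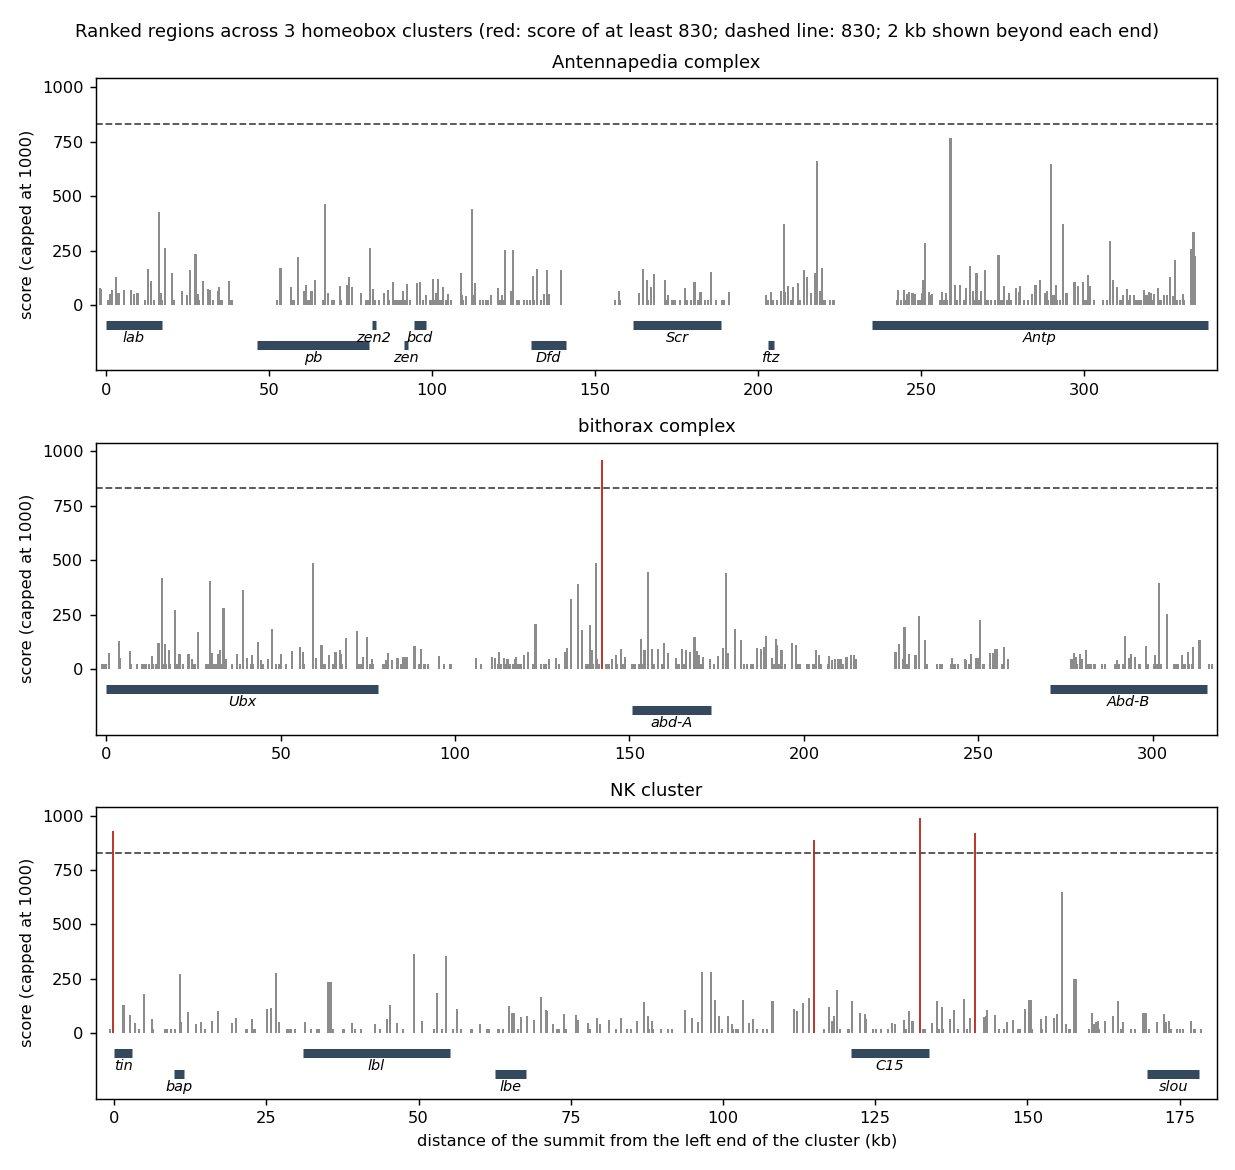
Deposited score of every ranked region against the distance of its summit in kb from the left end of the Antennapedia complex, the bithorax complex and the NK cluster, with homeobox genes drawn as bars below. Red lines mark scores of at least 830: none in the Antennapedia complex, 1 in the bithorax complex, and in the NK cluster the peaks at C15 and sp3 together with the tin peak at the left edge.

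The NK cluster, whose genes pattern mesoderm and muscle in the fly embryo, lies on the same chromosome arm. From tin to slou, 178 kb, it contained 224 ranked regions and 3 conservative peaks, with the tin peak a further 0.221 kb outside the span, where an even spread would place 2.4. The peaks fell at C15 and at its neighbour sp3, whose peak at 3R:21520187-21520522 had a pooled signal of 60.6, with 34.3 in replicate 1 and 24.9 in replicate 2. The optimal list kept 1 of these, at sp3. The remaining genes of the cluster had highest scores of 363 at lbl, 272 at bap, which acts in visceral mesoderm, 169 at lbe and 94 at slou. The Iroquois complex, 130 kb with 101 regions, and the gene pairs nub and pdm2, toe and eyg, and B-H2 and B-H1 contained no conservative peak.

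Of the segmentation and early axis genes, inv alone among 8 was bound, and genes of their size gave 1.32. The posterior determinant cad reached 483, the pair-rule gene ftz 373 and en 310, while eve had 189, the anterior determinant bcd 108, zen 96 and zen2 75. The zen2 domain, 3 kb, was the shortest among the 54 genes and held 3 ranked regions, and the list of replicate 2 had none there. A region between inv and en that the conservative list lacked was in the optimal list at 2R:11515730-11516065, with a pooled signal of 44.5. It was also called in replicate 2 with a signal of 29.95, and at 12 kb from the en TSS it was assigned to neither gene.

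Among the 5 TALE genes, which encode Hox cofactors and the Iroquois proteins, 1 was bound and genes of their size gave 1.26. Of the Iroquois genes mirr reached 356, ara 261 and caup 162. A region within the span of the Iroquois complex scored higher, at 634 with a pooled signal of 53, but was assigned to none of these genes. The best mirr region had a pooled signal of 51.7, with 33.9 in replicate 1 and a score of 664 there, against 16.1 and a score of 35 in replicate 2. At exd, with a domain of 4.29 kb and 2 regions, the highest score was 74, at a coding-exon region with a pooled signal of 20.9 and 11.2 in replicate 1, and replicate 2 had no overlapping region.

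Of the 10 appendage and body-wall genes C15 was bound, where genes of their size gave 2.73. The distal limb gene Dll had a score of 589 at a region 182 bp from its TSS, with pooled signal 43.9, and 30.2 in replicate 1 and 19 in replicate 2. The homeobox genes al (476), Awh (454), tup (350), Dr (345) and B-H1 (337) followed by highest score, then B-H2 (207), Lim1 (171) and ap (118). The ap gene, which specifies the dorsal wing, was the farthest from a conservative summit of the 50 genes outside chromosome 4, at 340 kb. The tup gene was 1.71 kb from one without a peak of its own.

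The 5 POU and zinc-finger homeodomain genes had 2 bound members, vvl and zfh1, and genes of their size gave 1.53. The wing and neuroblast genes nub and pdm2 had highest scores of 266 and 204. A region within the span of this pair scored 415, with a pooled signal of 43.4, but was assigned to neither. On chromosome 4, zfh2 had a pooled score of 246 and a signal of 49.7 at its best region, where replicate 1 gave 36.8 with a score of 639 and replicate 2 gave 14.9 with a score of 10.

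None of the 11 eye genes was bound (exact upper limit 28.5%), and genes of their size gave 2.76, or 25.1%, a share below that limit. The 2.76 includes ey, toy and onecut on chromosome 4, where no gene was bound. The eye determination gene so reached 581, the head gap gene oc 525, Optix 474, the Pax gene eyg 417, toe 275 and dve 266. The best so region, intronic, had a pooled signal of 47.5, with 20.6 in replicate 1 and 28.05 in replicate 2. That of oc, intergenic, had 48.8 pooled and 24.4 in replicate 1, and replicate 2 had no overlapping region. The photoreceptor gene Pph13 had 149. The Pax6 genes ey and toy, which direct eye formation, had 74 and 52, onecut had 70 and the photoreceptor gene ro 54. The best ro region had a pooled signal of 13.2, with 6.39 in replicate 1 and 13.7 in replicate 2, while elsewhere in its domain replicate 2 had a region with a score of 320. The best toy region had 17.7 pooled, 13.9 in replicate 1 and 5.28 in replicate 2. At ey the pooled signal was 24.9 and at onecut 19.5, and replicate 2 gave 8.76 and 14.1 there, while replicate 1 had no overlapping region at either. The genes toy, ey and onecut lie on chromosome 4 with zfh2, and that chromosome held no conservative peak and only 162 ranked regions over its 80 genes. Without chromosome 4 the homeobox count was 6 of 50, against 10.3% of 13865 genes, where genes of their size outside that chromosome gave 12.7.

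The remaining 2 genes, ct and the glial determinant repo, were not bound in the conservative list. The best region of ct in the pooled ranked list scored 559 with a pooled signal of 56.3, from 37.4 in replicate 1 and 18.3 in replicate 2. The repo gene reached 403 in a coding exon 623 bp from its TSS, with a signal of 44.4.

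The location of the best region also differed from other genes. The highest-scoring region lay within 1 kb of a TSS for 14 of 54 homeobox genes (25.9%), against 48.6% of 12758 other genes with a region. It was intronic in 20 (37%, against 24.1%), intergenic in 20 (37%, against 21.6%) and in a coding exon in 13 (24.1%, against 45.7%). These shares were not compared within size classes. The median distance from the gene to the nearest conservative summit was 30 kb for the 50 homeobox genes outside chromosome 4, against 20.5 kb over all genes. In the largest size class it was 31.2 kb for homeobox genes and 13.5 kb for all genes. The Hox genes had a median of 90 kb. Of these, lab, pb, Dfd, Scr and Antp lie in a single span without a conservative peak. Their distances, from 68.1 kb at Antp to 242 kb at Dfd, are therefore not independent. In the bithorax complex the distances were 8.35 kb at abd-A, 14.4 kb at Abd-B and 64.4 kb at Ubx.

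Stretches of at least 10 kb without a ranked region made up 13.3% of the homeobox domains and 10.9% of the domains of all genes. They touched 17 of the 54 homeobox genes (31.5%), whose domains are longer, and 14.2% of all genes, and their part in the low scores was not tested. The caup domain, 22.2 kb, held 9 ranked regions, and that of ap, 31.5 kb, held 11.

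The comparison was extended to other homeobox genes. Of 44 further names from general knowledge 42 matched the annotation, and 3 of these were bound (7.14%, exact interval 1.5 to 19.5), where genes of their size gave 8.21. Their highest scores had a median of 253.5, and 2 of them, vis and achi, named here after their values were seen, had no region in the pooled ranked list used here. In a second pooled ranked list each reached a score of 22, and vis had a region with a score of 10 in replicate 2. The strongest peaks of the homeobox genes examined belonged to NK7.1, which encodes an NK-type homeodomain protein. Its peak 396 bp from the TSS at 3R:14373262-14373423 had a pooled signal of 290, with 154 in replicate 1 and 125 in replicate 2. A second NK7.1 peak, in an intron 718 bp from the TSS, had 183.5, with 87 in replicate 1 and 97.5 in replicate 2, and both were called in every thresholded list. The weakest NK7.1 peak, in an intron 16 kb from the TSS, had 57.6. The LIM-homeodomain gene Lim3 had a peak 393 bp from its TSS with a pooled signal of 52.1, with 27.9 in replicate 1 and 26.1 in replicate 2. In Vsx1, a gene of the optic lobe, an intronic peak had 74.2, with 43.2 in replicate 1 and 28.8 in replicate 2, and its nearest TSS was that of CG34435.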

How the data were processed

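ChIP-seq regions from 2 replicates of 1 group were analysed. Per the labels, coordinates are on dm6. The authors deposited ranked and IDR-thresholded lists, pooled and per replicate, and the labels name the same possible control experiment for both replicates, not analysed here. Aligner and peak caller are not given in the sources used here. The deposited score is the authors' scaled IDR and the deposited −log10 values hold the IDR. The deposited signal is the authors' peak strength, with unstated scaling, used to describe regions within a list. Without read counts the depth is unknown, which limits how firmly an uncalled gene can be read.

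The conservative list held 1814 peaks, 1799 of them on the arms analysed. The pooled ranked list that contains all of them held 138658 regions. The list of replicate 1 held 76068 ranked and 1284 thresholded regions, and that of replicate 2 held 85922 and 1027. Summits are region start plus the deposited offset. A replicate's value at a peak is its strongest ranked region overlapping by at least 1 bp. Genes and TSSs came from Ensembl release 115, sequence from the RefSeq genome of the same assembly. A domain is the gene plus all bases whose nearest TSS within 10 kb is its own. The highest-scoring region was taken by score, then signal. Intervals are exact binomial (SciPy 1.17.1). Assignment was tested on simulated summits.

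Homeobox genes and lists were chosen with earlier results of these data known, so no list test was made. Named genes were the 54 members, with full values for bound genes and for the 5 highest and 5 lowest unbound scores, the gene of the nearest TSS at their peaks and clusters, and bound homeobox genes outside the list. Details of other genes beyond their highest score were picked with values in view. Alternatives covered other lists, thresholds, assignments and size classes.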

Additional observations from a re-analysis of the deposited data

How the results depend on the processing

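The count of 6 bound homeobox genes stayed within 1.5 times under the optimal list, a summit inside the gene only and the nearest TSS alone (4 each), and under TSSs up to 50 kb away and overlapping peaks counted once (6 each; the last added after seeing the data). It was 10 at a score of 540, 1 at an IDR of 0.001, 1 within 1 kb of a TSS, and 1 to 3 with a single replicate. The ratio to genes of similar size, 0.44, ranged from 0.287 to 0.48 under 6 alternatives and from 0.114 to 0.291 with a single replicate, and was below 1 in every setting run. The median highest score, 341, was 325 in the second pooled list, 226.5 for summits inside the gene, where all genes had 86, and 97 to 174 with a single replicate. Regions per kb, 1.06, were 0.606 to 0.643 with a single replicate, against 0.588 and 0.665 over all genes. The replicates' own lists hold fewer regions, and the cause of the lower scores was not tested. No paired analysis was possible because the study has 1 group. Depth is unknown, so an uncalled gene may carry binding under the limit of detection.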
